A study of Homo sapiens with 2 samples.

Results

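The regions described here are the 237 NUSAP1 ChIP-seq summits that lay within 1 kb of either end of a long non-coding RNA (lncRNA) gene and more than 1 kb from both ends of all protein-coding genes. They were chosen by position alone, on chromosomes 1 to 22, and made up 2.66% of the 8911 summits there. The whole list held 9043 summits. No value of the peaks entered this rule, but the regions were chosen with earlier results of these data known.

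The study profiled NUSAP1 in AsPC1, an established human cell line of pancreatic ductal adenocarcinoma. Chromatin was fixed with formaldehyde and sheared by sonication, and fragments bound to NUSAP1 were pulled down with an antibody from Proteintech. There was 1 immunoprecipitated library and 1 input library made without antibody, both from cells with no other labelled treatment or genotype. Only the peak list of the immunoprecipitated library was analysed here, so there is no replicate, intervals cover counting error only, and no class of summits was tested against another. A peak list holds no expression values, so neither the AsPC1 label nor the transcription of any lncRNA could be checked.

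NUSAP1 (nucleolar and spindle associated protein 1) binds microtubules and helps to build the mitotic spindle around chromosomes. In interphase it is found in the nucleus and the nucleolus. LncRNA genes are transcribed and often spliced but code for no known protein. Some start beside a protein-coding promoter and run the other way, some overlap a protein-coding gene on the opposite strand, and others stand alone between genes. Their starts can carry promoter features such as CpG islands, stretches where the CpG dinucleotide has not been depleted, while their 3′ ends are where transcription terminates. RefSeq symbols record part of this: -AS marks an antisense gene, -DT a divergent transcript, -IT an intronic transcript, LINC an intergenic lncRNA, and LOC a gene model with no other name.

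Of the 237 summits, 16 fell inside a 300-base promoter sequence of the reference, which runs from 250 bases before a lncRNA start to 50 bases after it. These 16 summits touched 17 promoters, because LINC01166 and LINC01168 start near each other on opposite strands and share 1 summit. Sequences of 4 promoters are shown. They are the 2 whose summits had 7 or more fragments, that of a well studied lncRNA, NORAD, and that of LINC01168, whose summit is shared with LINC01166. They come from RefSeq, build GRCh38.p14, and read 5′ to 3′ along the gene's strand. Capitals mark the 21 bases centred on the summit.
LOC105378005 (chr6:131443747-131444046, minus strand): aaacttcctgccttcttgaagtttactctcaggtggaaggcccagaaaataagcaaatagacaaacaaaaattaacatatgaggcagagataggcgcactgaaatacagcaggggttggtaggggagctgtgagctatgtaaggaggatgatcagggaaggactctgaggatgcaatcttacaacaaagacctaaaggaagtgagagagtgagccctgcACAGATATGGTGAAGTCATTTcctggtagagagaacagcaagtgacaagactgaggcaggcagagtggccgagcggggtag
LOC105373664 (chr2:145631804-145632103, minus strand): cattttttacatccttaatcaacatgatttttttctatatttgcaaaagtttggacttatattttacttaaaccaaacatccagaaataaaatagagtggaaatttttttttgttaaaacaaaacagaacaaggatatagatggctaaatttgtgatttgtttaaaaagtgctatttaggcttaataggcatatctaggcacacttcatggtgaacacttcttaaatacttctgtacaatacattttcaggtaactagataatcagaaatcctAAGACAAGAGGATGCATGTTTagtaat
NORAD (chr20:36050911-36051210, minus strand): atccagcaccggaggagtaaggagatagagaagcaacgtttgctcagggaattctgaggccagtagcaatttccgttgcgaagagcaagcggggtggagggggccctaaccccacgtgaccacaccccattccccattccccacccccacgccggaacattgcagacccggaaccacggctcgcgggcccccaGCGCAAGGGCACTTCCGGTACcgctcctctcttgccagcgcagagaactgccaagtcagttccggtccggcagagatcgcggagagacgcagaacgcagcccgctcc
LINC01168 (chr10:132965284-132965583, plus strand): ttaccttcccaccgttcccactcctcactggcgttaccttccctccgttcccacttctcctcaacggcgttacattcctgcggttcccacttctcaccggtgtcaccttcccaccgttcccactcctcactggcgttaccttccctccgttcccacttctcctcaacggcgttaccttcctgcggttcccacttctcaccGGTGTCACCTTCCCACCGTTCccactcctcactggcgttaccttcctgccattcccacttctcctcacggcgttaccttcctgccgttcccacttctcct

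The summit at LOC105378005 lay 21 bases before the start, in a promoter with 47.3% G and C and 3 CpG sites. That at LOC105373664 lay 33 bases inside the gene, and its promoter had 28.0% G and C and no CpG site. The NORAD promoter was unlike both, with 63.0% G and C and 23 CpG sites. NORAD is an abundant cytoplasmic lncRNA that binds Pumilio proteins and helps to keep the genome stable. Its summit lay 47 bases before the start, and an ETS motif began at that same base. The motif, CCGGAAGT, is on the opposite strand and reads ACTTCCGG in the printed line. An E-box (CACGTG) began 138 bases before the start. The summit at LINC01168 lay 40 bases before the start, in a promoter with 58.7% G and C and 19 CpG sites, and it was 205 bases before the start of LINC01166. The printed LINC01168 sequence repeats the same short stretches along its length, and how reads with several matches were placed is not given in the sources used here. Neither LOC promoter, nor those of LINC01166 and LINC01168, held any of the 11 motifs searched.

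Each summit carried a fold enrichment over the caller's local background, a p and a q, all given by the authors' peak caller. Whether the input library served as the control for that background is not given in the sources used here. The fold and p together fix the number of fragments piled up at the summit and the background it was compared with, and these were worked out for every summit. Of the 237 summits, 62 had 4 fragments, 89 had 5 and 50 had 6, so that 84.8% rested on 4 to 6 fragments. A further 19 had 7 fragments, 13 had 8, 2 had 9, 1 had 11 and 1 had 13. The median fold was 3.03 (quartiles 2.64 and 3.51, range 2.34 to 8.18), against 3.01 over all summits on these chromosomes. In most of these regions the signal was therefore a handful of fragments over a background near 1, with a median of 0.963.

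A q under 0.05 was reached by 7 of the 237 summits, 2.95% (Wilson 95% interval 1.44% to 5.97%). Over all 8911 summits the share was 1.25%, 111 in number. The interval of the lncRNA ends lies just above that value. Without summits inside protein-coding genes the share was 2.5% (0.976% to 6.25%). It was 2.63% (1.21% to 5.62%) without summits near genes that are neither lncRNA nor protein-coding, such as small RNA genes and pseudogenes. At starts alone it was 3.16% (1.08% to 8.88%), and without LOC genes 2.38% (0.655% to 8.27%). The share thus moved little, but on fewer summits these intervals took in 1.25%. Under these choices it was not separated from that background, which was not restricted in the same way. The share was 3.13% (1.80% to 5.40%) at protein-coding gene ends, 0.461% (0.302% to 0.703%) inside genes and 1.90% (1.51% to 2.39%) outside genes. Among the lncRNA-end summits, 190 (80.2%) had a q of 0.5 or more, against 83.4% of all summits. A q of 1 was given to 88 (37.1%), against 39.4% of all summits. Nearly all of these regions, like nearly all of the list, are thus single-library candidates that the caller's own correction did not separate from background.

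The strongest summit stood near the tip of chromosome 9, at position 10300 (peak 10138 to 10468). It lay 86 bp inside the lower edge of LOC107987370 and 566 bp from an end of a further lncRNA gene, LOC105379525. It held 13 fragments over a background of 0.712, an 8.18-fold enrichment with q = 2.1e-08. The position also lies in the body of LOC102724813, and the nearest protein-coding end, that of WASHC1, was 4213 bp away. WASHC1 belongs to a subtelomeric gene family with near-identical copies on several chromosomes, and how reads with several matches were placed is not given in the sources used here. No other lncRNA-end summit exceeded 5.27-fold.

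The remaining 6 summits with q under 0.05 ranged from 4.76-fold to 5.27-fold on 8 or 9 fragments. LOC105376704 had its summit at chr15:30471235, 226 bp beyond the gene's upper edge, with 8 fragments, 5.27-fold enrichment and q = 0.0105. An end of the pseudogene WHAMMP4 was within 1 kb of it. ERC2-IT1, an intronic transcript of ERC2, which encodes a scaffold protein of the presynaptic active zone, had its summit at chr3:55660284. It stood 815 bp before the start of ERC2-IT1 and inside ERC2, with 8 fragments, 5.26-fold and q = 0.0106. LOC105378005, whose promoter is printed above, had 8 fragments at chr6:131443817, 5.14-fold and q = 0.0148, and no protein-coding end within 129409 bp. The settings of these 3 differ: 1 has a pseudogene neighbour, 1 lies inside a protein-coding gene and 1 is far from any.

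LOC105378372 had 9 fragments at chr10:77711568, 880 bp before its start, 5.06-fold with q = 0.0128. LOC107984638 had 8 fragments at chr14:77027303, 165 bp outside the gene, 4.87-fold with q = 0.0368. That summit lay within the body of IRF2BPL, which encodes a nuclear zinc-finger protein, 1405 bp from an end of that gene. The nearest other NUSAP1 summit was 1151 bp from it. The 7th was IDH2-DT, a divergent transcript of IDH2, the mitochondrial NADP-dependent isocitrate dehydrogenase. Its 8 fragments lay at chr15:90132818, 754 bp inside the 3′ end, at 4.76-fold and q = 0.0494, and the IDH2 gene end was 30350 bp away. The summit is thus at the far end of the transcript and not at the promoter shared with IDH2.

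**Figure D1:**
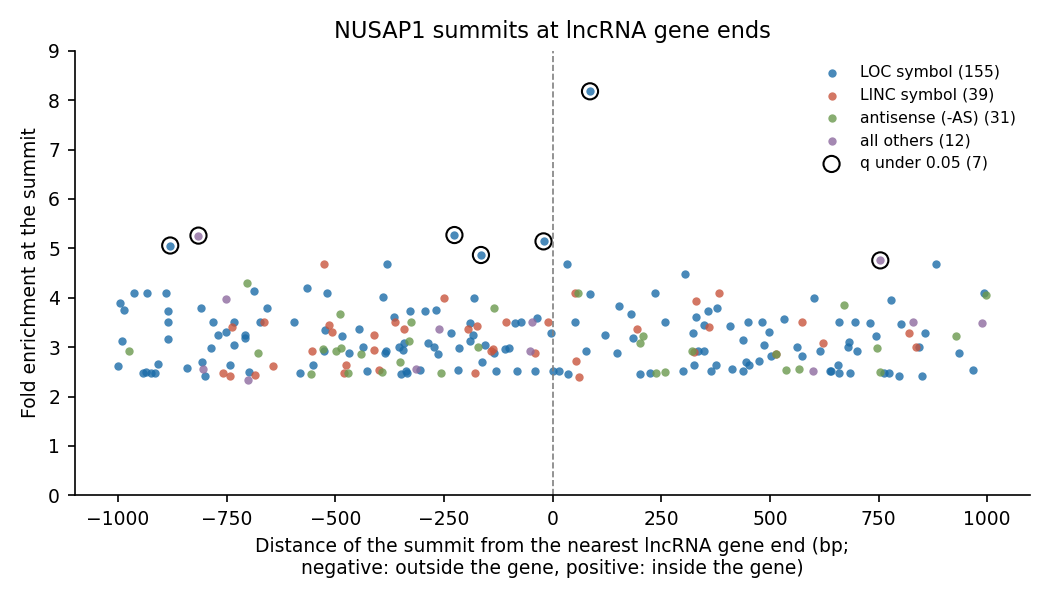
Each point is 1 of the 237 summits, plotted by its distance to the nearest lncRNA gene end in bp (negative outside the gene, positive inside) and its fold enrichment, with colours for the naming class and rings for q under 0.05. The 7 ringed points lie between 21 and 880 bp from an end, with LOC107987370 at 8.18-fold above the rest.

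The 20 highest folds ran from 4.10 to 8.18, and 14 of these summits were at LOC genes, 16 had 7 or more fragments and 7 lay inside a protein-coding gene. Just past the q limit, LINC01726, LOC102723657, LOC105373664 and LOC105371790 each had 7 fragments, folds of 4.67 to 4.68 and q = 0.0857. LOC124901045 followed with 8 fragments, 4.49-fold and q = 0.0880. CD63-AS1 runs antisense to CD63, which encodes a tetraspanin of late endosomes and exosomes. Its summit at chr12:55728391 had 9 fragments, 4.29-fold and q = 0.105, and lay 703 bp before the CD63-AS1 start and 1650 bp from an end of CD63.

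LOC105378115 (q = 0.258, in PDE10A) and LOC105377683 (q = 0.305, in IL12B, 1384 bp from an end of that gene) had 7 fragments and a fold above 4 each. LOC124906132 had 2 summits, 1 of 7 fragments at 934 bp (4.10-fold, q = 0.333) and 1 of 4 fragments at 349 bp (2.46-fold, q = 1). IFNG-AS1, an antisense lncRNA known to act on the interferon gamma gene, had a summit 58 bp from its start with 6 fragments, 4.10-fold and q = 0.418. LOC105376135, LOC124909364 and LINC02760 had the same fold to 2 decimals and the same q. Identical values recur because few whole numbers of fragments over nearly the same background are possible.

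Summits of 7 or more fragments numbered 36 of 237, or 15.2% (11.2% to 20.3%), against 11.9% of all summits. The share at protein-coding gene ends was 26.9% (22.7% to 31.5%), and that interval lies wholly above the one for lncRNA ends. Inside genes it was 9.98% (9.15% to 10.9%) and outside genes 12.4% (11.4% to 13.5%). By this share the lncRNA ends were nearer to all summits than to protein-coding ends. The share with q under 0.05 was placed otherwise, at 2.95% for lncRNA ends, 3.13% for protein-coding ends and 1.25% for all summits. Part of the 36 stood on a raised background, here 3 or more times as high as the lowest one listed (0.708). It was found at 7 summits, none with q under 0.05. All 7 had 7 or more fragments, but a summit on a higher background needs more fragments to reach the same p. Over all summits 161 had such a background, and 897 of the 1058 with 7 or more fragments were on the lower background. Leaving out the raised background thus takes away only summits of 7 or more fragments, and lowers their share in every class. Left to summits on the lower background, the share was 12.6% (8.92% to 17.5%) at lncRNA ends and 10.3% over all summits, a value inside that interval, while at protein-coding ends it was 22.7% (18.6% to 27.2%). With the same restriction the q under 0.05 share was 3.04% (1.48% to 6.15%) at lncRNA ends, 2.49% (1.31% to 4.66%) at protein-coding ends and 0.777% over all.

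The 7 on a raised background were LOC112268274, BZW1-AS1, LOC100132249, JMJD1C-AS1, LNCPOIR, NEMP2-DT and MALAT1. LOC112268274 had 11 fragments over 2.14, only 3.83-fold with q = 0.166, and ends of SEC22B4P and LOC124904613 within 1 kb. MALAT1 is among the most abundant nuclear lncRNAs and is found in nuclear speckles. Its summit at chr11:65507216 lay 700 bp beyond the 3′ end, where an end of its antisense transcript TALAM1 is also within 1 kb. It had 8 fragments over a background of 2.85, which gave 2.34-fold, the lowest fold of all 237, and q = 1. A count of 8 fragments thus meant 5.27-fold at LOC105376704 and 2.34-fold at MALAT1, according to the background.

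**Figure D2:**
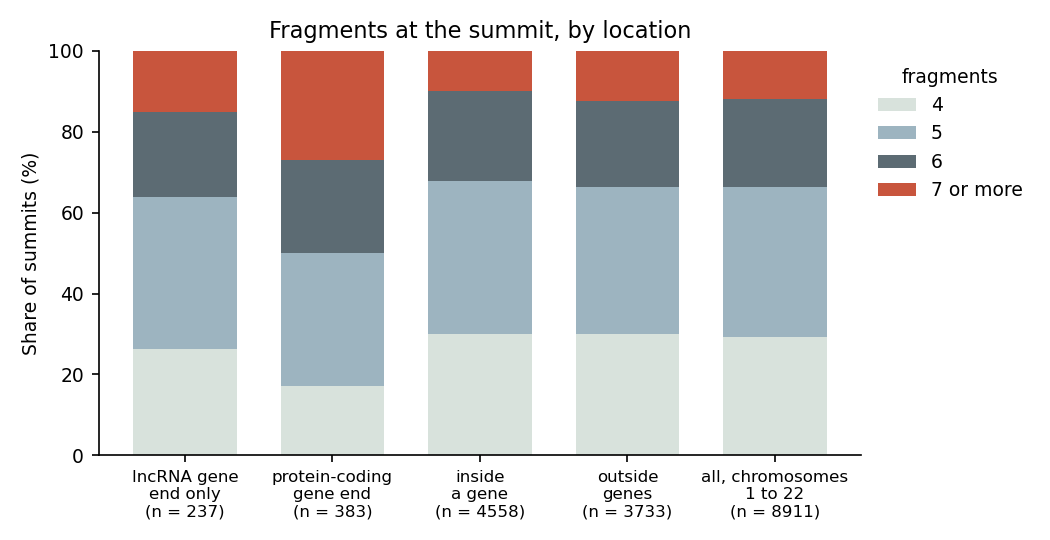
Share of summits in percent with 4, 5, 6 and 7 or more fragments, stacked for each location and for all summits on chromosomes 1 to 22. The part with 7 or more fragments is 15.2% at lncRNA ends, between the 11.9% of all summits and the 26.9% of protein-coding ends.

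Summits were then set against an even spread, the number that would fall within a given distance if each chromosome's summits were spaced evenly over its length. Within 1 kb of lncRNA ends there were 237 summits where an even spread gives 192, a ratio of 1.24 (exact Poisson 95% interval 1.08 to 1.40). With 7 or more fragments there were 36 against 22.7, a ratio of 1.58 (1.11 to 2.19). For protein-coding ends the ratios were 1.73 (1.56 to 1.91) and 3.88 (3.17 to 4.71). Farther out, from 5 to 20 kb around lncRNA ends, the ratio was 1.00 (0.953 to 1.05). At the same distance around protein-coding ends it was 0.948 (0.901 to 0.996).

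Starts and 3′ ends differed. The reference gives the strand of 62.6% of lncRNA genes, and around their starts there were 95 summits within 1 kb against 57.8 in an even spread, a ratio of 1.64 (1.33 to 2.01). Around their 3′ ends there were 64 against 67.2, a ratio of 0.952 (0.733 to 1.22), and these intervals do not overlap. By distance from a start the ratio was 1.74 (1.13 to 2.57) within 250 bp, 2.03 (1.36 to 2.92) from 251 to 500 bp and 1.40 (1.01 to 1.90) from 501 to 1000 bp. It was 0.867 (0.655 to 1.13) from 1 to 2 kb and 1.01 (0.943 to 1.08) from 5 to 20 kb. The excess at lncRNA starts thus lay within 1 kb. The intervals of the 3 distances within 1 kb overlap, so these counts do not resolve its shape there.

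Protein-coding starts showed a ratio that fell with distance, with 4.78 (3.94 to 5.75), 2.63 (2.01 to 3.39) and 1.44 (1.11 to 1.84) over the same 3 distances. From 5 to 20 kb their ratio was 0.912 (0.855 to 0.971). Their 3′ ends, like those of lncRNA genes, stood near an even spread when all summits were counted, at 1.03 (0.839 to 1.26). Among summits of 7 or more fragments the lncRNA starts held 14 against 6.84, a ratio of 2.05 (1.12 to 3.43). Protein-coding starts held 68 against 10.9, a ratio of 6.25 (4.85 to 7.92), and within 250 bp the ratio there was 16.4 (12.0 to 21.8). With 3 such summits within 250 bp of lncRNA starts, a ratio of 1.77 with an interval of 0.364 to 5.16, the lncRNA profile at that depth cannot be resolved by distance. At lncRNA 3′ ends 10 such summits gave 1.26 (0.604 to 2.32), and at protein-coding 3′ ends 19 against 11.2 gave 1.70 (1.03 to 2.66).

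**Figure D3:**
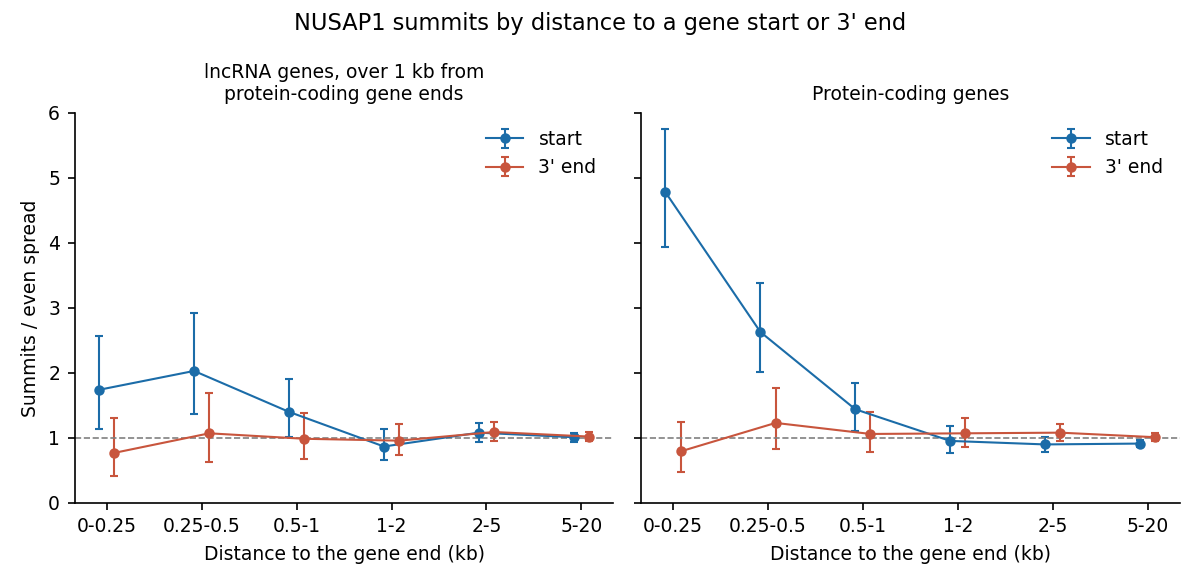
Ratio of summits to an even spread by distance in kb from gene starts (blue) and 3′ ends (red), for lncRNA genes away from protein-coding ends (left) and protein-coding genes (right), with exact Poisson 95% intervals and a dashed line at an even spread. The lncRNA starts reach 2.03 between 251 and 500 bp and the protein-coding starts 4.78 within 250 bp, while both kinds of 3′ end stay near the line.

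The distance from summit to lncRNA end had a median of 451 bp (quartiles 258 and 703). There were 58 summits within 250 bp of an end, 73 from 251 to 500 bp and 106 from 501 to 1000 bp. Of all 237, 101 (42.6%) lay inside the body of the nearest lncRNA and 136 outside it. Where the strand was known, 92 were nearest to a start and 63 to a 3′ end, with 14 (15.2%) and 10 (15.9%) having 7 or more fragments. Their median folds were 3.21 and 2.97. Starts thus held more summits than 3′ ends, and whether fragments per summit differed between them was not tested.

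The choice left out summits within 1 kb of protein-coding ends, which removed 74 of the 311 summits at lncRNA ends (23.8%). The remaining 237 had a median distance of 54.3 kb to the nearest protein-coding end, and for 95 (40.1%) it was over 100 kb. A protein-coding end was within 2 kb of 16 summits, 5 of which (31.2%) had 7 or more fragments. A further limit is that 77 (32.5%) lay inside a protein-coding gene, 15 of them (19.5%) with 7 or more fragments. Ends of genes listed as neither lncRNA nor protein-coding, such as small RNA genes and pseudogenes, were within 1 kb of 9 summits. Of these, 4 (44.4%) had 7 or more fragments. The 4 include MALAT1, through its antisense transcript TALAM1, and LOC112268274 and LOC100132249, all on a raised background. The share with 7 or more fragments was 15.2% for all 237 and 11.9% for all summits, and differences on these small counts were not tested. Another NUSAP1 summit of any kind was within 100 kb of 149 summits (62.9%), near the 59.8% for all summits, and 9 summits had another of the 237 within that distance.

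Of 17795 lncRNA genes on these chromosomes, 243 (1.37%, 1.21% to 1.55%) had such a summit. Antisense genes had 30 of 1994 (1.50%, 1.06% to 2.14%), led by CD63-AS1 and IFNG-AS1. LINC genes had 42 of 2259 (1.86%, 1.38% to 2.50%), led by LINC01726 at 4.68-fold and LINC02760 at 4.10-fold. LOC genes had 159 of 12069 (1.32%, 1.13% to 1.54%). These 3 intervals overlap, and differences between the classes were not tested. Of the LINC summits 2 of 39 (5.13%) had 7 or more fragments, and of the LOC summits 24 of 155 (15.5%). The share was 15.2% for all 237 and 11.9% for all summits, and the LINC value rests on 2 summits.

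Divergent transcripts had 3 of 580 (0.517%, 0.176% to 1.51%), namely IDH2-DT, NEMP2-DT and TMEM167B-DT (5 fragments, 3.37-fold). With summits near protein-coding ends counted too, 12 divergent transcripts had one. A divergent transcript starts beside a protein-coding promoter by definition, a position that the choice of summits leaves out. Intronic transcripts had 2 of 85, ERC2-IT1 and ITPKB-IT1 (5 fragments, 3.51-fold). The 7 of 676 among other named lncRNAs included LCDR (3.97-fold), NORAD and MALAT1. Hosts of microRNAs (0 of 82, interval up to 4.48%), hosts of small nucleolar RNAs (0 of 29, up to 11.7%) and overlapping transcripts (0 of 21, up to 15.5%) had none.

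**Figure D4:**
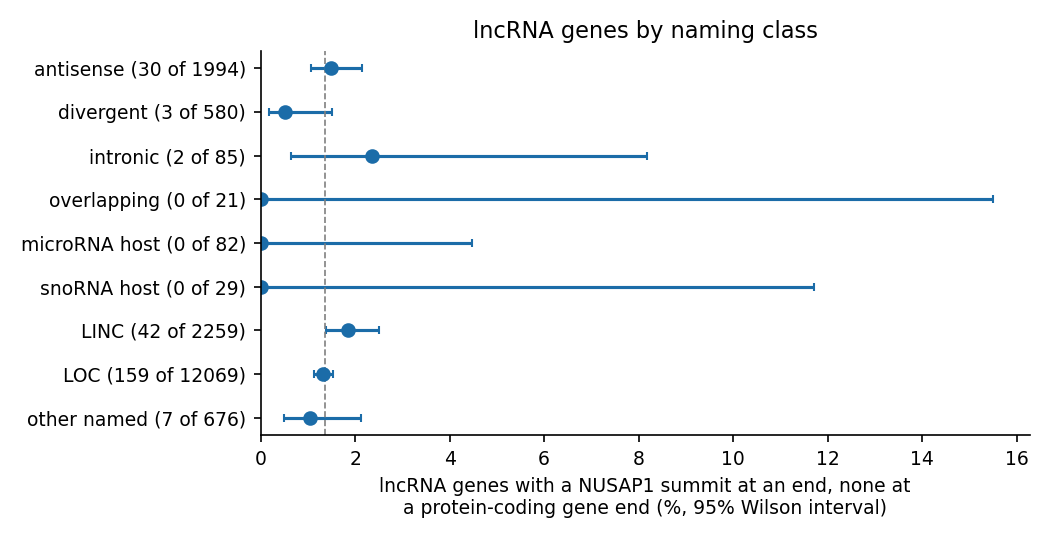
Percent of lncRNA genes of each naming class with a NUSAP1 summit within 1 kb of an end and no protein-coding end as near, with Wilson 95% intervals and a dashed line at the 1.37% of all lncRNA genes. The LINC, antisense and LOC classes lie between 1.32% and 1.86% with overlapping intervals.

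Among 67 well studied lncRNAs found in the table, 2 had such a summit, MALAT1 and NORAD (6 fragments, 3.52-fold, q = 0.753), and 8 (11.9%, 6.18% to 21.8%) had a summit anywhere in the gene body. Over all lncRNA genes 1143 of 17795 (6.42%) had a body summit. Longer genes have more room for such a summit, and these shares were not adjusted for gene length. The 8 include long genes such as PVT1, whose body summit lay 136 kb from its nearer end. KCNQ1OT1, the imprinted antisense transcript of KCNQ1, had its nearest summit in the body, 24589 bp from an end at 2.68-fold. Of 10 lncRNAs linked to glucose and lactate metabolism none had such a summit. The nearest summit to an end of PDK1-AS1 was 2.51 kb away and to SLC2A1-DT, divergent from the glucose transporter gene SLC2A1, it was 10.3 kb away. Of 14 lncRNAs linked to the pancreas or its cancers 1 had one, SLCO4A1-AS1, whose summit 487 bp before the start had 5 fragments, 2.99-fold and q = 0.914. For LINC00261, a neighbour of the endoderm factor gene FOXA2, the nearest summit was 6.66 kb away. HOXC-AS2, in the HOXC cluster, had a summit of 7 fragments 528 bp from its lower edge, at 2.96-fold and q = 0.779.

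The 17 promoters that held a summit were mixed in base composition. Their median CpG ratio (observed over expected) was 0.216, against 0.237 for the 9107 lncRNA starts over 1 kb from a protein-coding end and 0.767 for protein-coding promoters. Their upper quartile was 0.779 against 0.409 for the 9107. Of the 17, 5 (29.4%) were CpG-rich, with a ratio of at least 0.6 and at least 50% G and C, against 12.4% of the 9107. The 5 include LINC01166 and LINC01168, whose repetitive windows overlap on opposite strands and share 1 summit. Nearly the same sequence is thus counted more than once in these figures, and the difference was not tested. CpG-rich starts had a summit within 1 kb in 16 of 1127 cases (1.42%, 0.876% to 2.29%). Other starts had one in 74 of 7980 (0.927%, 0.739% to 1.16%), and the intervals overlap. LOC105372923 was at the rich end, with 46 CpG sites in 300 bases and a summit of 5 fragments at 2.99-fold, and LOC105373664 at the poor end had none.

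Motifs were searched on both strands of the 300 bases. A summit lay within 1 kb of 95 starts, of which 5 were themselves within 1 kb of a protein-coding end. The other 90 are set against the 9107 starts they belong to. The SP/KLF motif GGGCGG was found in 18.9% of the 90, against 16.4% of the 9107. TATAAA was found in 21.1% against 17.5%, CCAAT in 36.7% against 35.7%, and the AP-1 motif TGANTCA in 12.2% against 12.0%. The E-box CACGTG was in 6 of the 90 (6.67%) against 4.84%. ETS (CCGGAAGT) was in 2 (2.22%) against 0.966%, and the CRE TGACGTCA in 1 (1.11%) against 0.736%. The NRF1 motif GCGCATGC, the E2F motifs TTTCCCGC and TTTGGCGC and the YY1 motif GATGGCGG were in none of the 90, and in 1.17%, 0.637%, 0.231% and 0.692% of the 9107. Counts this small do not resolve a difference from the 9107, and no motif was tested. All motifs are matches of letters, and the summit itself need not lie in the window. Of the 90 promoters 17.8% were CpG-rich, against 12.4% of the 9107, and the part of this in the GGGCGG shares was not tested.

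Every chromosome from 1 to 22 had at least 1 such summit, from 1 on chromosomes 13, 21 and 22 to 34 on chromosome 1 and 32 on chromosome 6. Chromosomes 1, 2, 3, 5, 6 and 11 held 60.3% of them and 62.0% of all summits, but 39.8% of lncRNA genes. Across the 22 chromosomes their number followed that of all summits (Pearson r 0.93, Spearman rho 0.96) more closely than that of lncRNA genes (0.80 and 0.73). Both are descriptions, since the points share 1 library and the 237 are part of all summits. On chromosome 6, 2.96% of lncRNA genes had a summit, and on chromosome 13 0.158%. The share of summits that were at lncRNA ends was 3.54% (2.52% to 4.96%) and 1.23% (0.218% to 6.67%) on the same chromosomes, whose summits of any kind numbered 903 and 81. These 2 chromosomes thus differed more in their summits of any kind than in the share at lncRNA ends.

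**Figure D5:**
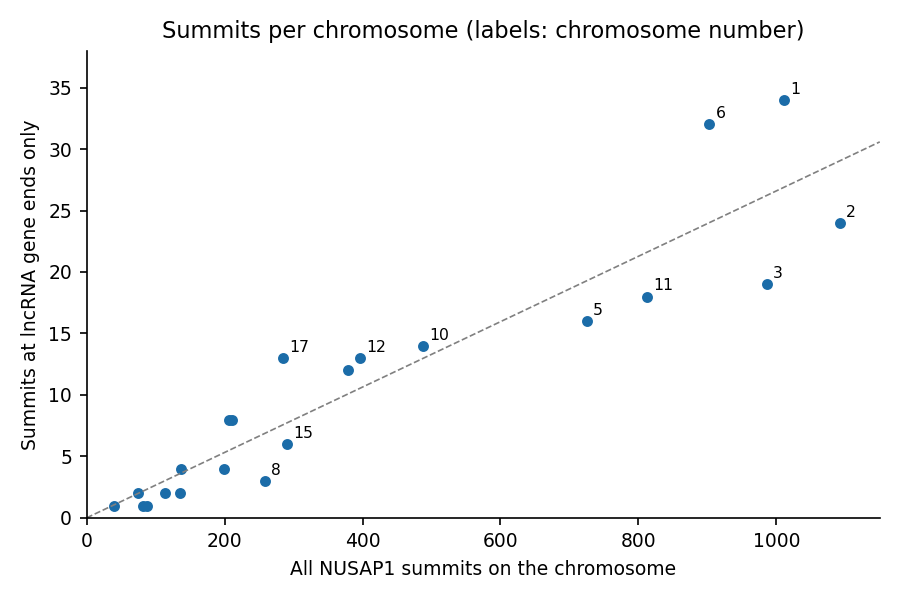
Number of lncRNA-end summits against all NUSAP1 summits for each of chromosomes 1 to 22, with a dashed line at the overall share of 2.66% and numbers beside most of the larger chromosomes. Chromosomes 1 and 6 lie above the line with 34 and 32, and chromosomes 2 and 3 below it with 24 and 19.

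At the 1 kb limit, the summits just inside were those of LOC124902764 (996 bp, 8 fragments, 3.88-fold), SLC39A13-AS1 (998 bp, 8 fragments, 4.06-fold, q = 0.272) and LOC105373689 (1000 bp, 4 fragments, 2.62-fold). Just outside were those nearest to LOC124901943 (1004 bp, 5 fragments, 3.43-fold), LOC124907735 (1005 bp, 4 fragments, 2.93-fold) and MLIP-IT1 (1006 bp, 6 fragments, 3.04-fold). SLC39A13-AS1 was near both limits, as its summit was 1008 bp from an end of SLC39A13, the gene of a zinc transporter.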

How the data were processed

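The study made 1 NUSAP1 immunoprecipitated and 1 input library from AsPC1 cells. The authors' pipeline used bcl2fastq 2.17, Trimmomatic 0.33, Bowtie 1.1.2 and MACS2 2.1.0 on build hg38, per the submitters' processing notes, and its settings are not given in the sources used here. The deposited peak list gives each summit's fold enrichment, a ratio to the caller's local background, its −log10 p and −log10 q, a score that is the whole part of 10 times the −log10 p, and the summit's offset from the peak start. Total reads per library were not analysed here, so depth is known only as fragments at the summit.

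Fragments and background were worked out from the fold, as (fragments + 1) / (background + 1), and the Poisson p. Whole fragments matched the p of all 9043 summits within 0.001 on the log10 scale. Positions were compared with the RefSeq gene table of GRCh38.p14. Strand and sequence came from its promoter table, matched by gene ID for 11145 of 17795 lncRNA genes. An even spread was computed for each chromosome from its first to its last gene or summit. Assembly gaps lie inside that span. The level at 5 to 20 kb was 1.00 around lncRNA ends and 0.948 around protein-coding ends, so it was not the same for both. Shares have Wilson and counts exact Poisson 95% intervals. Scripts (Python 3.11.15) were tested on simulated data.

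The regions and the gene lists were chosen with earlier results of these data known. Named genes were the summits with q under 0.05, the 20 highest folds, list members, the 2 highest folds of each naming class, the 3 summits on each side of the 1 kb limit, and summits of 7 or more fragments inside a promoter sequence. LOC105372923, LINC01166, LINC01168, KCNQ1OT1, HOXC-AS2, TMEM167B-DT and the summits on a raised background were named after their values were seen. Not every gene that the rule allows is named. A result on a withheld item is not reported here.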

Additional observations from a re-analysis of the deposited data

How the results depend on the processing

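No paired analysis was possible because there was 1 immunoprecipitated library. The number of summits at lncRNA ends, 237, was 137 with a distance of 500 bp, 393 with 2 kb and 760 with 5 kb, applied to lncRNA and protein-coding ends alike. With protein-coding ends held at 1 kb, added after seeing the data, it was 131, 418 and 895. It was 84 without LOC genes, 95 with starts alone, 7 at q under 0.05, 5 at a fold of at least 5 and 1 at a −log10 q of at least 5. The share with q under 0.05 was 0.789% at 5 kb for both kinds of end and 0.894% at 5 kb for lncRNA ends alone, against 2.95%. The 243 lncRNA genes became 37 with 7 or more fragments and 134 within 500 bp, with protein-coding ends held at 1 kb. The median CpG ratio of promoters holding a summit became 0.0978 with 7 or more fragments, which left 2 promoters. With 7 or more fragments, an alternative chosen after seeing the data, the ratio to an even spread was 2.05 at lncRNA starts and 1.26 at 3′ ends. In 54 other comparisons of a main result with an alternative the value stayed within the main counting interval, or a count within 1.5 times, and none reversed. These include leaving out protein-coding bodies (160 summits) and, added after seeing the data, protein-coding ends within 2 kb (221 summits, 31 of them with 7 or more fragments). The main limits are 1 library, 4 to 6 fragments at most summits, and strand for 62.6% of lncRNA genes.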

Other observations

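Outside chromosomes 1 to 22, 1 summit met the same distances, on the X chromosome among its 86 summits. It lay 838 bp from an end of LOC105373372, at 152929417, with 5 fragments, 3.51-fold enrichment and q = 0.779. It entered no count above.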
